A study of Mus musculus with 15 samples.

Results

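The response of cultured mouse cardiomyocytes to angiotensin II (AngII) was compared between cells without and with low-dose cilengitide (ldCil), gene by gene, as a difference of differences: the AngII + ldCil mean less the ldCil mean, less the AngII mean less the Control mean. A value above 0 means that the AngII difference was higher with ldCil than without it, and a value below 0 that it was lower. All 15 RNA-Seq libraries of the series entered the comparison, 3 from Control cells given saline (S1 to S3), 4 from cells given 1 µM AngII (S5 to S8), 4 from cells given 20 nM ldCil (S9 to S12) and 4 from cells given both agents at these doses (S13 to S16). Every gene with a mean of at least 0 log2 RPKM (reads scaled to gene length and library size) over the 15 libraries was included, which was 12848 of the 14337 genes in the table. The cells of all 4 groups came from wild-type C57/BL6 pups of 1 to 3 days of age, were kept in culture for 5 days, starved for 24 h in 0.5% serum, treated from day 6 and harvested on day 8. The labels do not say whether libraries of a group came from separate cultures, so the tests here measure how much the libraries vary, and that variation may be technical in part. Neonatal cells in culture, rather than adult heart, are the model.

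AngII is the effector peptide of the renin-angiotensin system. It acts on cardiomyocytes mainly through its type 1 receptor, which couples to Gq, phospholipase C, calcium and calcineurin, and it drives hypertrophic growth with re-expression of foetal genes. Cilengitide is a cyclic peptide that carries the arginine-glycine-aspartate (RGD) motif and occupies the αv integrins, the heterodimeric matrix receptors that signal through focal adhesion kinase and Src and that also help to activate latent TGF-beta. The comparison asks whether the AngII difference of a gene depended on the presence of ldCil, a question that AngII + ldCil against Control does not answer by itself.

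No gene passed the adjusted test for a dependence of the AngII difference on ldCil (0 of 12848 genes, or 0% at an adjusted p under 0.05, limma with Benjamini-Hochberg adjustment), and the smallest adjusted p was 0.958. At an unadjusted p under 0.01, 75 genes were found, 0.584% of those tested, where 128 would be counted if p-values were uniform. Of these, 38 lay above 0 (0.296%) and 37 below 0 (0.288%). At an unadjusted p under 0.05 there were 496 genes (3.86%, against 642 for uniform p-values), 237 above 0 (1.84%) and 259 below 0 (2.02%). The arms themselves gave 118 genes at an unadjusted p under 0.01 for AngII against Control (0.918%) and 96 for AngII + ldCil against ldCil (0.747%), and no gene at an adjusted p under 0.05 in either. The precision limits what could be seen: the median standard error (SE) of the difference of differences was 0.30 on the log2 scale over all genes, 0.525 for genes with a mean of 0 to 2 log2 RPKM and 0.234 for those of 4 to 6. The count of 75 depended on single libraries. It lay between 34 and 46 without S1, S2, S3, S6, S7, S11 or S14 and was 116 without S5, 173 without S8 and 142 without S15. The genes named below are described by their values and intervals, with no claim that any 1 of them differed, and the adjusted p of each of the 24 with the smallest p was 0.958 (limma).

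The genes at the smallest p shared 1 shape. All 38 genes above 0 at an unadjusted p under 0.01 had a mean that was lower in AngII than in Control and higher in AngII + ldCil than in ldCil, with medians of -0.41 and 0.388 on the log2 scale for these differences. Of the 37 genes below 0, 36 had the mirror image, with medians of 0.619 and -0.477. In all 75 genes ldCil alone differed from Control in the same direction as AngII alone did. The comparison adds Control to AngII + ldCil and subtracts AngII and ldCil, so the genes with its most extreme values tend to take this shape, and the counts are a description of the genes chosen. Over all genes tested, the AngII difference had opposite signs without and with ldCil in 48.1%. The differences of the arms, which share no library, were correlated at 0.371 across genes, a description over genes that are not independent, and this ranged from 0.0498 without S9 to 0.593 without S11.

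**Figure D1:**
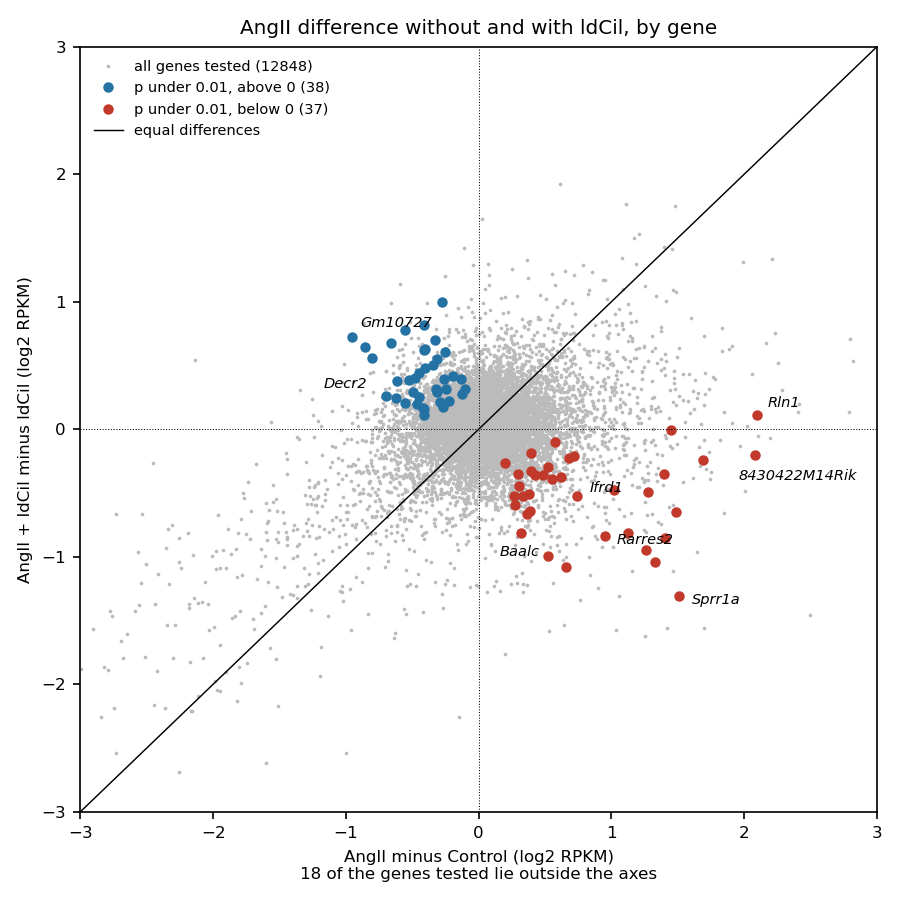
Each point is a gene, with its AngII minus Control difference on the x axis and its AngII + ldCil minus ldCil difference on the y axis, both in log2 RPKM, and the diagonal marks equal differences. The 38 genes above 0 at an unadjusted p under 0.01 (blue) lie in the upper left and 36 of the 37 below 0 (red) in the lower right, of 12848 genes in all, and 18 genes lie outside the axes.

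Libraries within a group stood apart. The first principal component held 49% of the variance over the genes tested. Its scores ran from -41.7 to 47.9 in AngII libraries and from -39.6 to 43.2 in ldCil libraries. Control libraries lay between 14 and 43, and AngII + ldCil libraries between -42 and 5.12. The difference of differences of the score was 26.4, smaller than the range within AngII or within ldCil libraries. The mean of 36 interferon-stimulated genes per library, centred by gene, was 1.91 in S5 against -1.69 to -0.788 in the other AngII libraries. In ldCil it was 2.22 to 2.52 in S9 and S10 against -1.74 and -1.43 in S11 and S12. Control libraries lay between 0.382 and 2.54, and AngII + ldCil libraries between -1.68 and -0.422. The difference of differences of this mean was 0.699, below its SD within groups of 1.6. With the component score as a covariate, 140 genes were at an unadjusted p under 0.01 and 0 passed the adjusted test, and 69 of the 75 genes were still at an unadjusted p under 0.01. The score was computed from the same values, group differences included, so it is not an independent measure of library state. Correlations between libraries ran from 0.888 to 0.992 within groups and from 0.879 to 0.993 between groups.

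**Figure D2:**
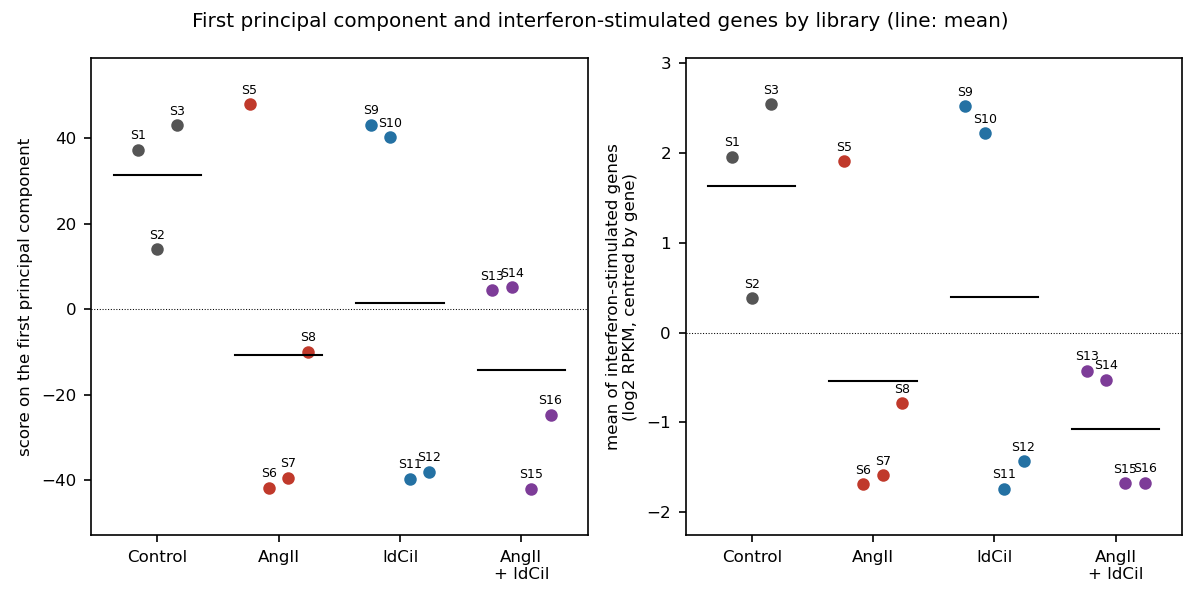
Each point is 1 library, with its score on the first principal component (left) and its mean over the interferon-stimulated genes in log2 RPKM centred by gene (right), and lines are group means. AngII and ldCil each hold libraries at both ends, from -41.7 to 47.9 and from -39.6 to 43.2 on the component.

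Among the 12 genes with the smallest p below 0, Sprr1a was the most highly expressed and had the largest difference of differences. It encodes a small proline-rich protein, a precursor of the cornified envelope in squamous epithelia. Its level in log2 RPKM was 8.15, 6.97 and 7.99 in Control, 8.52, 9.72, 9.26 and 9.37 in AngII, 7.81, 8.24, 10.24 and 8.74 in ldCil and 7.35, 7.42, 8.69 and 6.34 in AngII + ldCil. Each AngII library was above each Control library, whereas the ldCil and AngII + ldCil libraries overlapped, S11 being the highest of all and S16 the lowest. The AngII difference was 1.51 ± 0.56 (SE, a 2.85-fold higher mean) without ldCil and -1.31 ± 0.52 with it, a difference of differences of -2.82 ± 0.77 (95% interval -4.46 to -1.18). It ranged from -3.23 without S15 to -2.32 without S11.

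Nupr1, a small stress-induced nuclear protein that acts downstream of the transcription factor ATF4, also stood among these 12 genes. Its values were 4.19, 4.44 and 4.43 log2 RPKM in Control, 4.57, 4.65, 4.51 and 4.77 in AngII, 4.53, 4.54, 4.92 and 4.46 in ldCil and 4.46, 4.25, 3.997 and 3.64 in AngII + ldCil. The AngII libraries all lay above the Control libraries, and S13 was level with the lowest ldCil library while the other 3 AngII + ldCil libraries were under it. Its difference of differences was -0.80 ± 0.24 (95% interval -1.31 to -0.29), from -0.921 without S13 to -0.646 without S16.

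RefSeq promoters (GRCm38.p6, windows of 300 bases that span the gene start) were matched for 17 of the 24 genes with the smallest p, and were searched on both strands for the letters of the AP-1 site (TGANTCA, which reads the same on either strand), the cAMP response element (TGACGTCA) and the ATF4 composite element (TGATGCAA). AP-1 letters were found in 1 of the 17, Sprr1a, against 8.97% of 27025 genes with a promoter entry. ATF4 letters were also found in 1, Nupr1, against 1.03% of all, and the cAMP response element in 0 of 17, against 2.03%. Both promoters are shown 5′ to 3′ on the minus strand with the matches in capitals, because they are the 2 with a match: Sprr1a at chr3:92485832-92486131, with matches from bases 105 and 135, and Nupr1 at chr7:126625421-126625720, with a match from base 141 on the opposite strand. Neither match was tested for binding.
Sprr1a: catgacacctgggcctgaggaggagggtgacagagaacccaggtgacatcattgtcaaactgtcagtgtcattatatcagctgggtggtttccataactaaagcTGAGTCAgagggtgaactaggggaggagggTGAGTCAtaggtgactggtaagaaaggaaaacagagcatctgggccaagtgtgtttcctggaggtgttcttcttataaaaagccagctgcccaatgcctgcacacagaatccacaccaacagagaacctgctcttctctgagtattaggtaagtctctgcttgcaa
Nupr1: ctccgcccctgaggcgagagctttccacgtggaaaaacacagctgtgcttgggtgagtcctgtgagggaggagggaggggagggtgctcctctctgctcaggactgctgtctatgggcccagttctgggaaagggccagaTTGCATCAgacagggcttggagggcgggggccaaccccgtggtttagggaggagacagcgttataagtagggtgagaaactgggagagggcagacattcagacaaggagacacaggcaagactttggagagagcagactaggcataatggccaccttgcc

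Ifrd1, a transcriptional co-regulator, and Zcchc7, a zinc-knuckle protein of nuclear RNA surveillance, had doubly treated libraries with a narrow spread, close to Control. Ifrd1 was at 5.01, 4.85 and 5.12 log2 RPKM in Control, 6.13, 5.98, 5.66 and 5.18 in AngII, 5.43, 5.28, 6.42 and 5.55 in ldCil and 5.16, 5.10, 5.23 and 5.11 in AngII + ldCil. Neither pair of groups overlapped. Zcchc7 was at 2.90, 3.01 and 2.79 in Control, 3.68, 3.54, 3.25 and 3.07 in AngII, 3.62, 3.13, 3.51 and 3.30 in ldCil and 3.04, 2.99, 2.98 and 3.10 in AngII + ldCil, again with no overlap in either arm. The differences of differences were -1.27 ± 0.34 for Ifrd1 and -0.85 ± 0.22 for Zcchc7. The AngII + ldCil libraries had an SD of 0.061 for Ifrd1 and 0.056 for Zcchc7, and the ldCil libraries one of 0.51 and 0.22. The gene span of Ifrd1 overlaps that of Gm17024 on the same strand, and whether this affected the counted reads was not examined.

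Baalc, which encodes a membrane-associated protein known from brain and acute leukaemia, had the smallest p of all genes. It was at 3.14, 2.79 and 3.27 log2 RPKM in Control, 3.39, 3.52, 3.62 and 3.02 in AngII, 3.13, 3.28, 3.75 and 3.42 in ldCil and 2.54, 2.59, 2.91 and 2.29 in AngII + ldCil. Control and AngII overlapped, and each AngII + ldCil library was under each ldCil library. Its AngII difference was 0.32 ± 0.20 without ldCil and -0.81 ± 0.18 with it. The gene 1700025G04Rik, of which no role is given here, had the same form, with AngII differences of 0.36 ± 0.19 and -0.67 ± 0.18.

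Rarres2, which encodes the chemoattractant and adipokine chemerin, was at 1.00, 0.94 and 1.14 log2 RPKM in Control and at 1.36, 2.37, 2.25 and 1.93 in AngII. With ldCil it was at 1.27, 1.72, 2.63 and 1.75, and with both agents at 0.79, 1.11, 1.82 and 0.31. The groups did not overlap without ldCil and overlapped with it, and the difference of differences was -1.78 ± 0.50 (95% interval -2.86 to -0.71). The gene span of Rarres2 overlaps that of Lrrc61 on the other strand, and the sources used here do not give the strandedness of counting. Whether reads of these genes are shared was not examined.

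Of the other 5 genes below 0, Tiam2, an exchange factor of the GTPase Rac, and Crip1, a small LIM-domain protein, had differences of differences of -1.03 ± 0.30 and -0.89 ± 0.26. The long transcript 3110039I08Rik had -1.74 ± 0.50, with S16 at 2.74 against 4.16 to 4.54 in the other AngII + ldCil libraries. By gene span, Tiam2 overlaps Tfb1m on the other strand and 3110039I08Rik overlaps Gm28119 on the same strand. Rln1, the relaxin gene, and the unclassified transcript 8430422M14Rik had another form. Rln1 was at -1.40, -1.70 and -0.58 log2 RPKM in Control, and all 12 other libraries lay between 0.15 and 1.49. For 8430422M14Rik, Control lay at -0.92, -0.51 and -2.04 and the other 12 libraries between -0.02 and 1.95. Their differences of differences of -1.99 ± 0.57 and -2.28 ± 0.66 thus came from AngII and ldCil each standing above Control while the combination was at the same level as either. Both are close to the lower limit of the genes tested, and with 1 added to RPKM before the log the values were -0.923 and -1.13.

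The 12 genes with the smallest p above 0 were lower in AngII than in Control and higher in AngII + ldCil than in ldCil. Decr2, the peroxisomal dienoyl-CoA reductase of unsaturated fatty acid breakdown, was at 3.83, 3.69 and 3.72 log2 RPKM in Control, 2.69, 2.92, 3.04 and 3.54 in AngII, 3.27, 3.68, 3.04 and 3.24 in ldCil and 3.66, 3.47, 3.43 and 3.72 in AngII + ldCil. All AngII libraries were under all Control libraries, and only the pair of groups with ldCil overlapped. Its AngII difference was -0.70 ± 0.19 without ldCil and 0.26 ± 0.18 with it, a difference of differences of 0.96 ± 0.26 (95% interval 0.40 to 1.52).

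Casp6, an executioner caspase, was at 3.24, 3.30 and 3.02 log2 RPKM in Control, 2.70, 2.82, 2.43 and 2.99 in AngII, 2.61, 2.72, 1.99 and 2.80 in ldCil and 2.98, 3.05, 3.08 and 2.80 in AngII + ldCil. Control stood above AngII without overlap, and the ldCil library S12 was level with S16. The difference of differences was 0.89 ± 0.27, from 0.714 without S11 to 0.984 without S12. Usp40, a ubiquitin-specific protease, had the smallest SE of this set. Its values were 4.81, 4.86 and 4.80 in Control, 4.43, 4.46, 4.55 and 4.69 in AngII, 4.76, 4.72, 4.55 and 4.60 in ldCil and 4.87, 4.96, 4.74 and 4.91 in AngII + ldCil, with a difference of differences of 0.51 ± 0.14. It overlaps Dgkd on the other strand.

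The other 5 protein-coding genes were in this set. Spata13, an exchange factor of Rac and Cdc42, had a difference of differences of 1.04 ± 0.28 and did not overlap in either arm, with S16 at 5.74 log2 RPKM against 4.90 to 4.93 in the other AngII + ldCil libraries. Rapgef6, an exchange factor of Rap, had 0.61 ± 0.18 and did not overlap in either arm. Osbpl8, a lipid transfer protein of the endoplasmic reticulum, had 0.64 ± 0.19. Frem2, a basement membrane protein, had 1.03 ± 0.30, with S16 at 6.74 against 5.67 to 5.93 in the other 3 libraries of its group and 0.80 without S16. Rhbdd2, a rhomboid-domain protein, had 0.76 ± 0.23.

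The other 4 genes of this set were Gm10727, D830005E20Rik, 4732491K20Rik and Gm9512. Gm10727, an unclassified transcript, was at 3.26, 3.46 and 3.29 log2 RPKM in Control, 3.19, 1.59, 1.86 and 2.89 in AngII, 2.97, 3.02, 2.57 and 2.29 in ldCil and 3.48, 3.36, 3.12 and 3.80 in AngII + ldCil, with no overlap in either arm and a difference of differences of 1.68 ± 0.45. D830005E20Rik, which had 1.03 ± 0.29, lies antisense to Trdn, the triadin gene of the sarcoplasmic reticulum. The overlap is one of gene spans, and whether reads are shared was not examined. Trdn itself had -0.95 ± 0.48. The long noncoding 4732491K20Rik had 1.33 ± 0.39. Gm9512, a processed pseudogene whose reads may belong to a parent gene, had 0.88 ± 0.26.

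**Figure D3:**
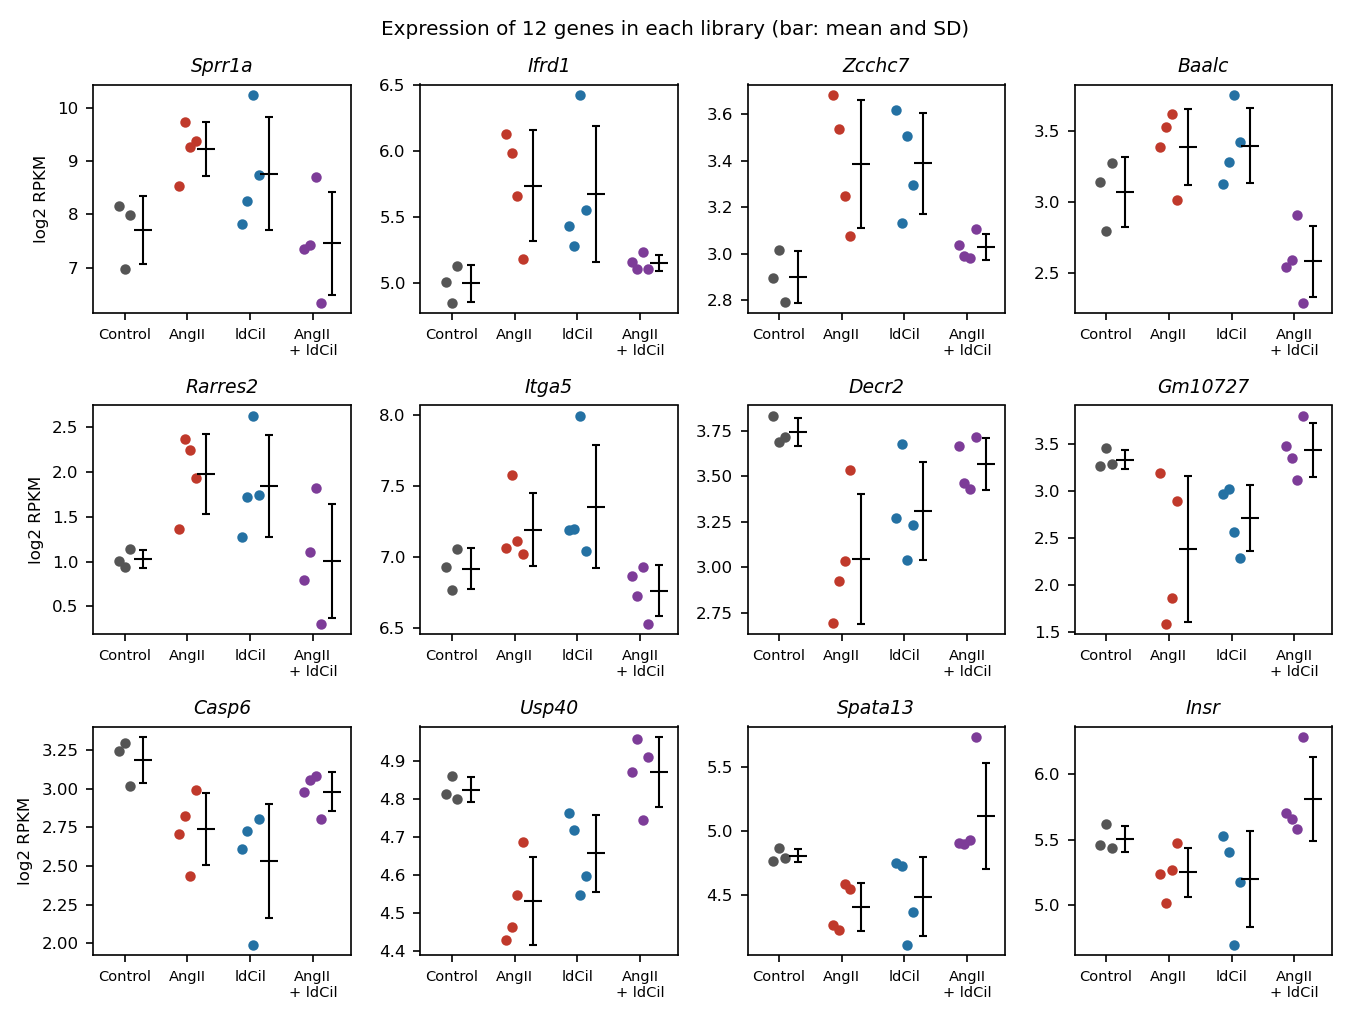
Points are libraries in log2 RPKM for 12 genes, by group, with a bar for the mean and SD of each group. Sprr1a, Ifrd1, Zcchc7, Baalc, Rarres2 and Itga5 had higher means in AngII and in ldCil than in Control and AngII + ldCil, and the other 6 had lower means there.

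Among all genes, Control and AngII libraries did not overlap in 1123 (8.74%), ldCil and AngII + ldCil libraries in 422 (3.28%), and both pairs in 20 (0.156%). Of the 24 genes with the smallest p, chosen on the same values, 17 did not overlap in the first pair, 12 in the second and 7 in both. Each of the 24 genes kept its sign in each alternative in which it was tested. The alternatives used the same libraries on which these genes were chosen, so this is not independent evidence.

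The receptor and peptidase genes of the angiotensin system had no member at an unadjusted p under 0.05 (0 of 6 tested, against 3.86% of all genes). Agtr1a, the type 1 receptor, was at 0.88, 1.24 and 1.24 log2 RPKM in Control, 1.27, 1.64, 1.57 and 1.12 in AngII, 1.22, 1.15, 0.42 and 1.34 in ldCil and 1.27, 1.40, 1.36 and 1.24 in AngII + ldCil. Its AngII difference was 0.28 ± 0.25 without ldCil and 0.28 ± 0.23 with it, and the difference of differences was -0.0028 ± 0.33 (95% interval -0.72 to 0.71). Agtrap, a protein that binds the receptor and promotes its internalisation, had the largest value of the list, 0.70 ± 0.37 (95% interval -0.08 to 1.49), with AngII at 4.58, 4.31, 4.50 and 5.38 against 5.36, 5.22 and 5.54 in Control. The first 3 of these AngII libraries lay under all Control libraries and S8 did not. With ldCil it was at 5.31, 5.40, 4.29 and 4.63, and with both agents at 5.07, 4.99, 4.82 and 4.87. The prorenin receptor Atp6ap2 had 0.31 ± 0.32, the angiotensin-degrading aminopeptidase Enpep -0.49 ± 0.40, the aminopeptidase Lnpep 0.34 ± 0.40 and the converting enzyme Ace -0.42 ± 0.61. S5 stood apart in Ace and Lnpep, at 2.37 and 3.87 log2 RPKM, and without it Lnpep had -0.0268 and Ace -0.874.

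Of the 9 RGD-binding integrin subunits tested, receptors for fibronectin, vitronectin and related matrix proteins, 7 lay below 0 and 2 above (52.2% of all genes lay above 0). Their median was -0.374 against 0.0154 over all genes. This median was -0.0753 without S1 and -0.0751 with the component score as a covariate. Itga5, the alpha subunit of the fibronectin receptor, was the 1 member at an unadjusted p under 0.01 (0.288% of all genes lay below 0 at this p). It was at 6.93, 6.77 and 7.06 log2 RPKM in Control, 7.06, 7.58, 7.11 and 7.02 in AngII, 7.19, 7.20, 7.99 and 7.04 in ldCil and 6.87, 6.72, 6.93 and 6.53 in AngII + ldCil. Each AngII + ldCil library was under each ldCil library, and Control and AngII overlapped. The difference of differences was -0.87 ± 0.28 (95% interval -1.47 to -0.27), and -0.655 without S11, the highest library.

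The αv subunit Itgav, the main target of cilengitide with its partners Itgb3 and Itgb5, was at 6.28, 6.21 and 6.38 log2 RPKM in Control, 5.97, 5.94, 5.98 and 6.32 in AngII, 6.30, 6.25, 5.70 and 5.78 in ldCil and 6.27, 6.16, 5.67 and 6.28 in AngII + ldCil. Its difference of differences was 0.33 ± 0.24. Itgb3 was at 3.49, 2.44 and 3.84 in Control, 2.67, 3.84, 3.43 and 2.29 in AngII, 3.62, 3.71, 3.86 and 3.37 in ldCil and 2.93, 2.52, 3.42 and 2.89 in AngII + ldCil. Here the value was -0.50 ± 0.50 (95% interval -1.57 to 0.57), with -0.0873 without S2 and -0.793 without S3. Itgb5 had 0.04 ± 0.26, and Itgb1, which pairs with many alpha subunits and was the highest of the list at 9.32 to 9.74 log2 RPKM, had -0.07 ± 0.16. Itgb6, Itgb8, Itga2b and Itga8 had -0.37 ± 0.31, -0.45 ± 0.89, -0.50 ± 0.49 and -0.12 ± 1.26.

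**Figure D4:**
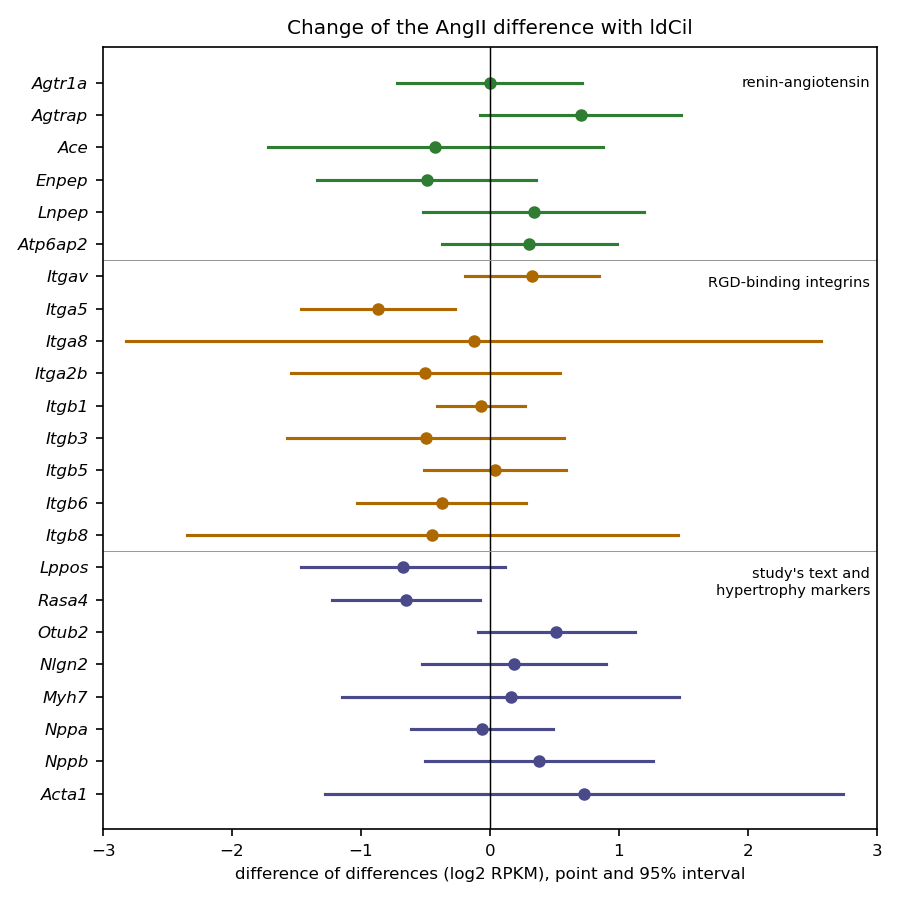
Points are differences of differences in log2 RPKM and lines their 95% intervals from the limma fit, for renin-angiotensin genes (green), RGD-binding integrins (brown) and the genes of the study's text with hypertrophy markers (violet). The intervals of Itga5 (-1.47 to -0.27) and Rasa4 (-1.23 to -0.07) do not hold 0, and those of the other 21 genes do.

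Focal adhesion and integrin signalling genes, which act below these receptors, were evenly split (12 of 25 above 0, against 52.2% of all genes, median -0.00107). Among them, Tln2, a talin that links integrins to actin, was at 0.58 ± 0.27 and the caveolin Cav3 at -0.61 ± 0.32. The RGD-containing ligands had a median of -0.0121, and their member with the smallest p was Tnc, the tenascin gene, at -1.34 ± 0.61. Tnc was at 6.76, 6.77, 7.21 and 6.50 log2 RPKM in ldCil and at 6.16, 5.89, 6.10 and 5.13 in AngII + ldCil, without overlap, and ranged from 4.97 to 7.43 in AngII. The lists of TGF-beta signalling (median -0.0607) and of collagens and matrix remodelling (-0.121) had 0 of 29 and 0 of 38 members at an unadjusted p under 0.05 (3.86% of all genes), and the collagen median was 0.0661 without S16.

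The Gq, calcineurin and hypertrophic signalling list, which follows the type 1 receptor, had a median of -0.0709 with 1 of 32 members at an unadjusted p under 0.05 (3.86% of all genes), and the median ranged from -0.182 without S5 to -0.00486 without S16. That member was Ppp3ca, a catalytic subunit of calcineurin. It was at 5.41, 5.43 and 5.25 log2 RPKM in Control, 5.89, 5.64, 5.74 and 5.72 in AngII, 5.54, 5.50, 5.72 and 5.68 in ldCil and 5.56, 5.60, 5.76 and 5.53 in AngII + ldCil. AngII libraries were above Control libraries without overlap (0.39 ± 0.10), the groups with ldCil had nearly the same mean (0.0037 ± 0.095), and the difference of differences was -0.38 ± 0.14 (95% interval -0.68 to -0.08).

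The genes that the study's text names for these cells, a list chosen on these libraries and so no independent evidence of a direction, held 4 genes with a difference between AngII and Control at an unadjusted p under 0.01. Rasa4, which promotes GTP hydrolysis by RAS, was at 2.61, 2.96 and 2.70 log2 RPKM in Control, 3.09, 3.68, 3.52 and 3.67 in AngII, 2.75, 2.86, 3.30 and 3.40 in ldCil and 3.20, 2.92, 3.13 and 3.40 in AngII + ldCil. AngII and Control did not overlap (0.73 ± 0.20), the groups with ldCil did (0.08 ± 0.18), and the difference of differences was -0.65 ± 0.27 (95% interval -1.23 to -0.07). Lppos, a long noncoding RNA that lies antisense to Lpp, had AngII differences of 0.90 ± 0.27 without ldCil and 0.23 ± 0.25 with it, and -0.67 ± 0.37 between them (95% interval -1.46 to 0.11). Otub2, a deubiquitinating enzyme, had -0.73 ± 0.21 and -0.21 ± 0.19, and 0.51 ± 0.28 (95% interval -0.09 to 1.12). Nlgn2, a synaptic adhesion protein, had -0.75 ± 0.25 and -0.56 ± 0.23, and 0.18 ± 0.33 (95% interval -0.53 to 0.90). The AngII difference was nearer to 0 with ldCil than without it in each of these 4 genes, and in Lppos, Otub2 and Nlgn2 the 95% interval of the change held 0.

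Hypertrophy markers were not at an unadjusted p under 0.05 (0 of 13, against 3.86% of all genes, median -0.0413, or 0.127 without S11). Myh7, the slow myosin heavy chain of foetal heart, was at 6.06, 6.18 and 6.11 log2 RPKM in Control, 6.31, 6.96, 6.91 and 6.23 in AngII, 6.11, 6.14, 6.60 and 6.84 in ldCil and 6.31, 6.15, 7.16 and 8.68 in AngII + ldCil. Every AngII library was above every Control library, and the highest value was that of S16. The gene span of Myh7 overlaps those of Mhrt, Gm29015 and Gm31251 on the other strand, and whether reads are shared was not examined. The difference of differences was 0.16 ± 0.61, and -0.372 without S16. Nppb, the B-type natriuretic peptide gene, had 0.38 ± 0.41, Acta1, the skeletal alpha actin re-expressed in hypertrophy, 0.73 ± 0.94 with S8 at 7.08 against 3.20 to 4.75 in the other AngII libraries, and Nppa -0.06 ± 0.26. Nppa was listed at 11.73, 11.98 or 12.40 in each library, values that recur across libraries, so its differences are steps between them. Its gene span overlaps that of Gm13054 on the other strand.

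Stress genes showed members that went against the median of their list. The PERK-ATF4 list had 27 of 33 members above 0 (81.8%, against 52.2% of all genes). Its median was 0.252 (0.158 without S12 and 0.0543 with library weights). At an unadjusted p under 0.05 it had 3 members above 0 and 3 below 0 (1.84% and 2.02% of all genes). The 3 members with the smallest p lay below 0: Nupr1, Atf3 and Ppp1r15a. Atf3, a stress-induced transcription factor that is also an immediate early gene, was at 2.92, 3.02 and 3.31 log2 RPKM in Control, 3.80, 3.90, 3.10 and 3.64 in AngII, 3.62, 3.38, 5.28 and 3.68 in ldCil and 3.06, 3.20, 3.11 and 2.62 in AngII + ldCil. Each AngII + ldCil library was under each ldCil library, and S11 stood above all others. The difference of differences was -1.52 ± 0.49 (95% interval -2.56 to -0.48). Ppp1r15a, the phosphatase subunit that ends eIF2α phosphorylation, had -0.62 ± 0.23, and Phgdh, the first enzyme of serine synthesis, had 0.68 ± 0.27.

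Immediate early genes had 17 of 24 members below 0 (52.2% of all genes lay above 0) and a median of -0.27 (from -0.381 without S10 to -0.158 without S11). Fosb, a partner of Jun in AP-1, had -2.61 ± 1.08, with 2.97 and 1.83 log2 RPKM in S11 and S12 against -0.02 and -0.31 in S9 and S10. Its mean of 0.25 was close to the lower limit of the genes tested, with Control at -0.69, -1.84 and -0.88. Egr1, a zinc finger transcription factor, had -0.86 ± 0.41 and lay at 5.56, 5.37, 6.10 and 5.44 in ldCil above 5.20, 4.87, 5.21 and 5.19 in AngII + ldCil. Errfi1, a feedback inhibitor of the EGF receptor, belongs to the RAS-ERK feedback list and had -2.12 ± 0.82, with S11 at 7.28 and S6 at 6.22 against 3.54 to 5.29 in the other 13 libraries. In that list 3 of 17 members lay below 0 at an unadjusted p under 0.05 (2.02% of all genes), Errfi1, Rasa2 and Rasa4.

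The insulin, PI3K-AKT and mTOR list had 24 of 32 members above 0 (52.2% of all genes) and a median of 0.163. This median was 0.117 without S16 and 0.0804 without S5 and S16 together. At an unadjusted p under 0.05 the list had 2 members, both above 0 (1.84% of all genes). Insr, the insulin receptor, was at 5.46, 5.62 and 5.44 log2 RPKM in Control, 5.24, 5.02, 5.27 and 5.47 in AngII, 5.53, 5.40, 4.70 and 5.17 in ldCil and 5.71, 5.66, 5.58 and 6.28 in AngII + ldCil. All AngII + ldCil libraries lay above all ldCil libraries, and the difference of differences was 0.86 ± 0.27 (95% interval 0.28 to 1.44). Irs2, the adaptor that docks PI3K on the receptor, had 0.84 ± 0.29 (95% interval 0.22 to 1.46), with AngII at 3.24, 3.69, 3.64 and 4.14 against 4.20, 4.03 and 4.27 in Control.

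Energy metabolism was split. Glycolysis and hypoxia genes had the lowest median of the pathway lists, -0.447 (from -0.608 without S15 to -0.255 without S16). Below 0 lay 22 of 28 members, where 52.2% of all genes lay above 0. Ldha, lactate dehydrogenase A, was at 9.44, 9.52, 9.86 and 9.69 log2 RPKM in ldCil and at 9.28, 9.29, 9.39 and 8.93 in AngII + ldCil, without overlap, and had a difference of differences of -0.55 ± 0.22. Pgam1, a glycolytic mutase whose reads may be shared with pseudogene copies, lay above 0, at 6.82, 6.73 and 6.71 in Control, 6.20, 6.02, 5.96 and 6.35 in AngII and 0.86 ± 0.29 in the difference of differences. Genes of the TCA cycle (median -0.0889 over 30 genes), fatty acid oxidation (-0.115 over 24) and nuclear respiratory chain subunits (-0.0874 over 78) had 0 members at an unadjusted p under 0.05 (3.86% of all genes). Their AngII differences had medians of 0.186, 0.20 and 0.287 without ldCil and of 0.128, 0.0733 and 0.199 with it. Without S5 and S16 together the medians of these 3 lists were 0.052, 0.00153 and 0.0414. Without S12 alone those of the TCA cycle and respiratory chain lists were 0.0448 and 0.0393.

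Antioxidant genes had 19 of 27 members below 0 (52.2% of all genes lay above 0) and a median of -0.232, which was 0.0138 without S5 and S16 together. Gpx1, a glutathione peroxidase, lay above 0, at 7.03, 7.07, 7.08 and 7.04 log2 RPKM in ldCil and 7.36, 7.28, 7.26 and 7.43 in AngII + ldCil, with 0.40 ± 0.13 (95% interval 0.13 to 0.68). Gsta4, a glutathione transferase, had -0.75 ± 0.33.

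Several lists with high medians had lower ones with the component score as a covariate. The score was computed from these same genes, so the fit also takes out any group difference that follows it. Interferon-stimulated genes had 32 of 36 members above 0 (52.2% of all genes) and a median of 0.687. MHC class I genes had 16 of 16 above 0 and a median of 0.658, or 0.0275 with the covariate and 0.255 without S11. Either list had 0 members at an unadjusted p under 0.05 (3.86% of all genes). The AngII difference of the interferon list had a median of -2.14 without ldCil and -1.47 with it. Its difference of differences was -0.0346 without S11, -0.389 with the component score as a covariate and 1.63 without S5 and S16 together. Cytosolic ribosomal proteins had 77 of 78 members above 0 (52.2% of all genes) and 0 at an unadjusted p under 0.05 (3.86% of all genes). Their median was 0.292, 0.0623 with the covariate, and from 0.176 without S6 to 0.529 without S5. The gene-centred mean of this list ran from -0.65 in S15 to 0.624 in S5, with an SD within groups of 0.363. Its members moved together by library, so the count of 77 is not one of independent genes. Cholesterol synthesis genes had a median of 0.426, 0.119 with the covariate and 0.134 without S11, with Hsd17b7, an enzyme of this pathway, at 0.84 ± 0.32. The p53 list had a median of 0.275 (0.236 with the covariate), and the cell cycle list 0.234 (0.131 with it). The YAP-TEAD list was not lower with the covariate, at 0.131 and 0.14 with it. The p53 median was 0.17 without S16, the cell cycle median 0.101 without S12 or 0.502 without S8, and the YAP-TEAD median 0.227 without S8. Among their members were Ccng1 at 0.65 ± 0.28 and Ptpn14 at 0.71 ± 0.30. ER chaperones (median 0.0573, or -0.0347 without S11), adult contraction and calcium handling genes (-0.091) and mitochondrially encoded genes (-0.0683) had 0 members at an unadjusted p under 0.05 (3.86% of all genes).

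**Figure D5:**
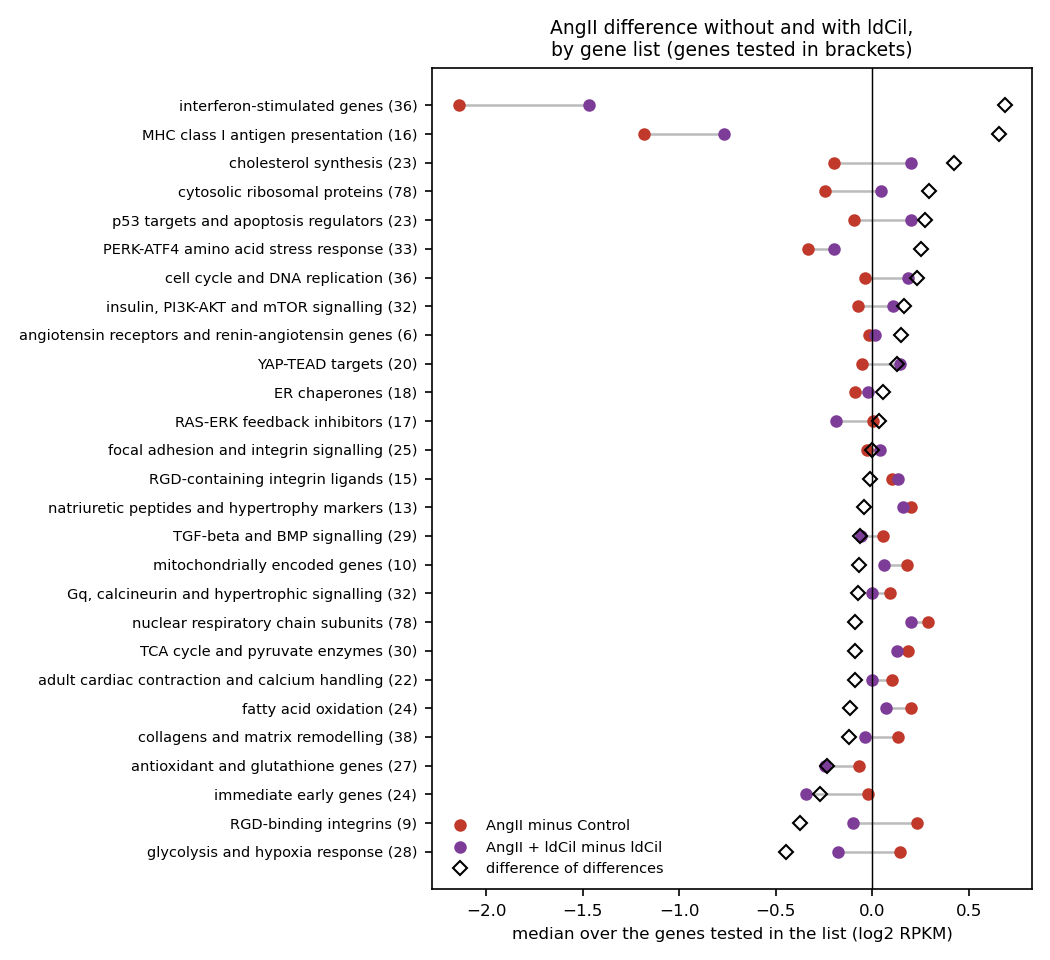
For each pathway list, circles are the median AngII differences in log2 RPKM over its tested genes without ldCil (red) and with ldCil (violet), and diamonds the median of the difference of differences. Glycolysis and hypoxia genes have the lowest diamond, -0.447, and interferon-stimulated genes the highest, 0.687.

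The libraries expressed the defining genes of cardiomyocytes, all 20 of 20 of which were tested, at a summed level of 14.3 to 14.5 log2 RPKM, with a difference of differences of -0.0364. Markers of other cells were present too: fibroblast (14 of 14 tested), smooth muscle and pericyte (13 of 14), endothelial (12 of 15), macrophage (14 of 17), epicardial (9 of 12) and neuronal markers (5 of 14), with summed levels of 10.5 to 12, 11.3 to 11.7, 6.56 to 7.36, 5.97 to 9.22, 6.17 to 9.04 and 5.48 to 6.52 over the libraries. Their differences of differences were -0.0385, 0.153, 0.143, -0.197, -0.829 and 0.271, and 0 of 10 erythroid markers were tested. As gene-centred means per library, fibroblast and macrophage markers were lowest in S16, at -1.03 and -1.35. The medians of the difference of differences over these lists were 0.135 and -0.0594, and became 0.366 and 0.404 without S16. The part of this library's cell content in the values of single genes was not tested. The epicardial sum, in which the keratin Krt18 was the highest gene at a mean of 6.38, was 7.17 in Control, 6.95 in AngII, 7.67 in ldCil and 6.62 in AngII + ldCil, and its part in the values of Sprr1a and other genes was not tested. In bulk cultures, fewer cells of a type and less RNA per cell cannot be told apart.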

How the data were processed

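RNA-Seq of poly(A)-captured RNA from cultured mouse cardiomyocytes gave 15 libraries on the Illumina NextSeq. The submitters' processing notes name HISAT2, HTSeq and GRCm38, but the sources used here do not give tool versions, the annotation release or the strand setting of the counting. The deposited values are log2 RPKM, made by the authors with conditional quantile normalisation. Depth per library is unknown, so no counting interval was computed. Of 14337 gene identifiers, 14329 were found in the GENCODE M21 annotation of GRCm38. Leftover description text in columns with no name was not used.

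The AngII by ldCil comparison was fitted in limma 3.58.1 (R 4.3.3) with 1 mean per group over all 15 libraries and no covariate, and variances were moderated by empirical Bayes along a trend with expression (11 residual degrees of freedom). A gene entered if it averaged at least 0 log2 RPKM, which 12848 did. Tests are 2-sided, Benjamini-Hochberg adjustment covers all of these genes, and the thresholds were an adjusted p of 0.05 and an unadjusted p of 0.01 and 0.05. The fit was tested on simulated data in which genes and libraries varied independently. Such data lack the variation that genes share across these libraries, so that test does not cover it. The 36 gene lists were written from textbook knowledge, 1 of them from the study's text, and are described by counts and medians with no set test. Named genes were the 12 with the smallest p in each direction, members of the renin-angiotensin and RGD-binding integrin lists, genes of the study's text with hypertrophy markers, up to 3 members of each pathway list with the smallest p, and the most expressed markers. Phgdh lies outside this rule and was named after its value was seen. The comparison, its members and the lists were chosen with earlier results of these data known.

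Alternatives were no filter or one at a mean of 2, log2 of RPKM plus 0.1 or plus 1, centring on the median or quantile normalisation of libraries, moderation with no trend or a robust trend, weights per library, a covariate (the score on the first principal component, or the first residual component), a fit of only the 2 groups of an arm, S5 and S16 left out together, and each library left out in turn.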

Additional observations from a re-analysis of the deposited data

Results flagged for a closer look

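Each of the 47 genes named by rank, list or text (the renin-angiotensin and integrin genes, the genes of the study's text with hypertrophy markers and the 24 genes with the smallest p) was examined in the AngII, ldCil and AngII + ldCil groups of 4 libraries for a highest or lowest library far from the others by Dixon's criterion. It was met in 9 of 141 combinations of gene and group, where chance gives about 1 in 20. In log2 RPKM, Spata13 was at 5.74 in S16 against 4.90 to 4.93 in the other AngII + ldCil libraries. The transcript 8430422M14Rik was at 1.95 in S15 against 0.628 to 0.665. Among AngII libraries, 3110039I08Rik was at 4.19 in S8 against 5.02 to 5.18, Itgav at 6.31 in S8 against 5.94 to 5.98, Itga5 at 7.58 in S6 against 7.02 to 7.11, Ace at 2.36 in S5 against 3.96 to 4.28 and Nppa at 11.7 in S7 against 12 in the other 3. In ldCil, Itga5 was at 7.99 in S11 against 7.04 to 7.20 and Nppa at 12.4 in S11 against 12. For Nppa the other 3 libraries shared 1 listed value in both groups, so the criterion was met through tied values. The rate of 1 in 20 does not apply to such ties. The Itga5 library S11 lies on the side that makes the difference of differences of this gene larger, which was -0.655 without it, and the library S16 does the same for Spata13.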

How the results depend on the processing

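No gene passed the adjusted test in the alternatives tried, except with library weights, which gave 2387 genes at an adjusted p under 0.05 and 2482 at an unadjusted p under 0.01 (weights from 0.113 for S5 to 7.01 for S1), and the cause was not tested. The 75 genes at an unadjusted p under 0.01 became 140 with the component score and 319 with the first residual component as a covariate, and from 34 to 173 with 1 library left out. For AngII against Control the count of 118 was 243 with no filter, 66 with a mean of at least 2, 247 with only those groups, and from 40 to 281 with 1 library left out, being lower without S1, S3, S6 or S7 and higher without S5 or S8. For AngII + ldCil against ldCil the count of 96 was 315 with the component score, and from 52 to 272 with 1 library left out, being lower without S9, S10, S11 or S16 and higher without S12. No paired analysis was possible because the labels give no replicate numbers that groups share.

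The 24 genes with the smallest p, Itga5, Rasa4, Lppos and Otub2 kept their direction in all alternatives run. The 24 were chosen for values far from 0, relative to their SE, in these same libraries, so their kept direction is not independent evidence. Differences of differences near 0 turned sign, and none of these values was at an adjusted p under 0.05 in the fit described. With library weights Lnpep was at -0.134 and Myh7 at -0.638, without S5 and S16 together they were at -0.145 and -0.469, with the component score Itgb8 was at 0.179, Itgb5 at -0.0521 and Itga8 at 0.771, and with quantile normalisation Agtr1a was at 0.106. With 1 library left out, Lnpep ranged from -0.0268 to 0.494, Nlgn2 from -0.00648 to 0.372, Itgb1 from -0.135 to 0.00355, Myh7 from -0.372 to 0.47, Nppa from -0.211 to 0.0409, Itgb5 from -0.109 to 0.153, Itga8 from -0.99 to 0.374 and Agtr1a from -0.207 to 0.117.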
